A study of Mus musculus with 8 samples.

Results

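The 10 genes described here were chosen by name as receptors, granule proteins and related products of neutrophils: Fpr1, Fpr2, Cxcr2, Csf3r, Ltf, Ngp, Mmp8, Hdc, Trem1 and Clec4d. Every probe set paired with 1 of these symbols in the probe annotation was taken, which gave 11 probe sets for 9 of the 10 genes, out of 18193 genes with a probe set. Fpr1, a receptor for formylated bacterial peptides, was not listed in the annotation and was not analysed here. RNA of back skin from Balb/c mice was hybridised to 8 Affymetrix arrays, 1 for each sample. In the DNCB+HY209 group (n = 3) the hapten DNCB (1-chloro-2,4-dinitrobenzene, a contact sensitizer) was put on the skin over 15 days, with a PEG gel holding 5% HY209, a GPCR19 (bile acid receptor) agonist, during the last 7 days. The DNCB group (n = 3) received the same hapten course with vehicle in place of HY209. Sham skin (n = 2) had neither DNCB nor HY209 by its titles and source names, although its protocol fields repeat the DNCB text, a doubt that touches each comparison with sham. Ages, sexes and the sharing of animals between arrays were not given, so p-values measure only the spread between these samples.

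Neutrophils are short-lived white blood cells that leave the blood for inflamed tissue along gradients of chemokines, formylated peptides and lipid mediators. Their granule proteins are made in waves during maturation in the bone marrow and are carried into tissue ready-made, while receptors and cytokine genes are also transcribed in the mature cell. C/EBP factors and PU.1 are transcription factors of the myeloid lineage that act on many of these genes. In haptenated skin, neutrophils enter the dermis and epidermis together with monocytes and lymphocytes.

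Promoter sequences of all 10 genes were available from RefSeq on the GRCm38.p6 build, whose reference strain is not the Balb/c strain of these mice. In the 250 bases before each start, the C/EBP-type motif TTNNGNAA and the PU.1-type motif GAGGAA were searched on both strands. The C/EBP-type motif was present in 7 of the 10 promoters, against 36.8% of 32851 mouse promoters of the same length. The PU.1-type motif was present in 7 of the 10, against 23.3%, and both were present in 5 of the 10, against 8.87%. Hdc was the 1 gene with neither. Below are the promoters of Fpr2 and Clec4d, the members with the largest differences between DNCB and sham skin when each gene is read from its brightest probe set, and of Ngp and Ltf, granule genes with low signals, so that the pairs can be compared. Capitals mark the motif matches on either strand, which did not overlap each other, and all sequences run 5′ to 3′ toward the start.
Fpr2, chr17:17887574-17887823, plus strand: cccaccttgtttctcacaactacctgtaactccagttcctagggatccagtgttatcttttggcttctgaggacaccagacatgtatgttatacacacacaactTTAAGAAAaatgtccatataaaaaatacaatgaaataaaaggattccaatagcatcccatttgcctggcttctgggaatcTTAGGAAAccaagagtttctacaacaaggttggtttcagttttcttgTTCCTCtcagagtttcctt
Clec4d, chr6:123261857-123262106, plus strand: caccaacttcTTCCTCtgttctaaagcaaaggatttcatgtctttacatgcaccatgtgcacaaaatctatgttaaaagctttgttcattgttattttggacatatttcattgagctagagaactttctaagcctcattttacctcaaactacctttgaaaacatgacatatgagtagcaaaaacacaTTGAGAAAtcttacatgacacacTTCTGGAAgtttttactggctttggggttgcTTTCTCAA
Ngp, chr9:110419558-110419807, plus strand: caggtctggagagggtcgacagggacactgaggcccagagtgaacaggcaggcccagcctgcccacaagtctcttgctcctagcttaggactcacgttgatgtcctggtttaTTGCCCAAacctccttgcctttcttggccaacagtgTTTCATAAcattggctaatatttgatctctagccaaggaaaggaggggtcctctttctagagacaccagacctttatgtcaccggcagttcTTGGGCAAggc
Ltf, chr9:111019042-111019291, plus strand: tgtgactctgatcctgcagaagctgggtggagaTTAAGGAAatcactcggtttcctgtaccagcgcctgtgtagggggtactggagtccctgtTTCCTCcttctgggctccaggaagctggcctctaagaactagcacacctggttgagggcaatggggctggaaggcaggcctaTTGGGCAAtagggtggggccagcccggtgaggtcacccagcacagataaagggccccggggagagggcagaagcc
The Fpr2 window held 2 C/EBP-type matches and 1 PU.1-type match, and the Clec4d window 3 and 1. The Ngp window held 3 C/EBP-type matches and 0 PU.1-type matches, and the Ltf window 2 and 1. Both pairs of genes carried such matches, which describe letters and not bound factors.

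All values are log2 signals per probe set as the authors deposited them, and the median of an array, 4.08 to 4.22, serves as a marker of low signal because no detection calls were analysed here. Of the 88 member values (11 probe sets on 8 arrays), 45 lay below the median of their array. A total of 4 probe sets lay below it on all 8 arrays, those of Ltf, Ngp and Mmp8 and the dimmer probe set of Trem1. Only the probe sets of Csf3r and the brighter probe set of Trem1 lay above it on all 8 arrays. A gene was tested through its brightest probe set if that lay above the median on at least 2 of the 8 arrays, which 6 of the 9 listed genes did (Fpr2, Cxcr2, Csf3r, Hdc, Trem1 and Clec4d). Ltf, Ngp and Mmp8 did not, and their differences come from a fit without this filter. Signals of different probe sets do not rank genes by abundance. The array named DNCB 2 gave the highest value for 6 of the 11 probe sets, and the array named DNCB+HY209 2 the lowest for 4 of the 11.

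**Figure D1:**
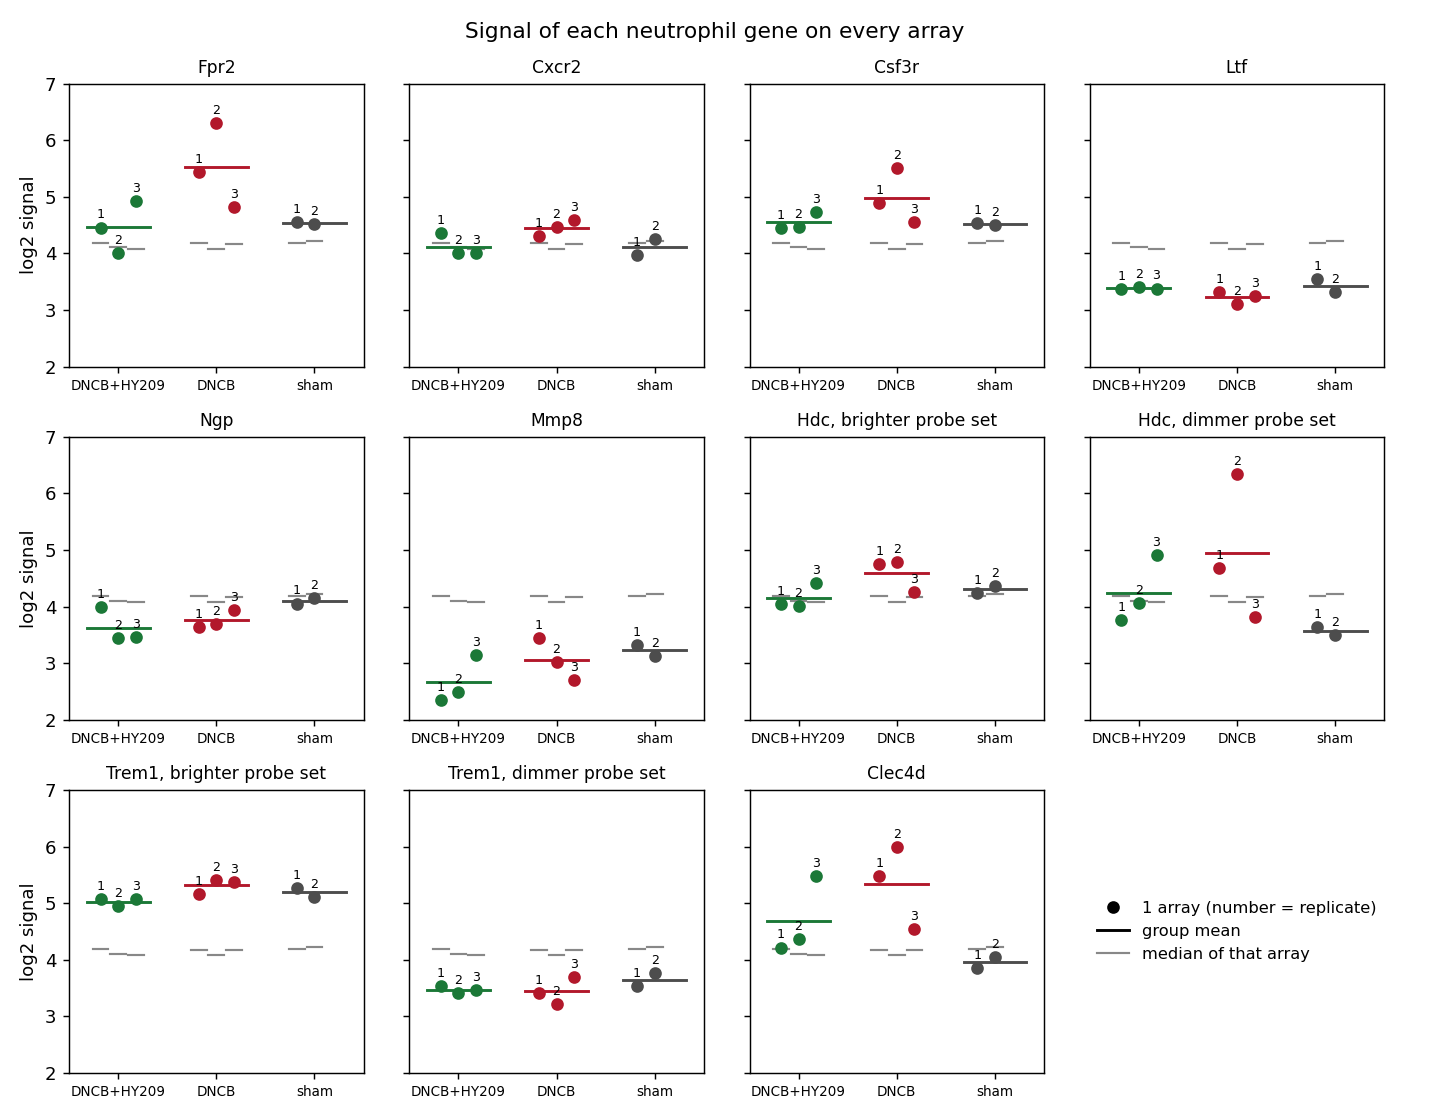
Log2 signal of each member probe set on each array (vertical axis), with DNCB+HY209, DNCB and sham arrays from left to right. Points are single arrays numbered by replicate, long bars are group means, and short grey bars are the median of each array. Fpr2, Csf3r and Clec4d have their highest value on the array DNCB 2, and Ltf, Ngp and Mmp8 lie below the array medians throughout.

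In DNCB against sham skin, Clec4d and Fpr2 had the largest differences among the 9 genes by their brightest probe sets, while the dimmer probe set of Hdc differed by 1.39 on the log2 scale, as much as Clec4d (1.38). Both sham values of that Hdc probe set and 1 of its 3 DNCB values lay below the array median, so its size is approximate. The mean signal of Clec4d was 2.60-fold higher and that of Fpr2 1.98-fold higher in DNCB skin. Neither passed limma's test after adjustment over 12420 genes. The count was 0 of the 6 tested members at an adjusted p under 0.05, where 1.83% of all genes tested passed. At an unadjusted p under 0.05 it was 2 of 6 (Fpr2 and Clec4d), against 16.8% of all genes. Of the 9 differences between DNCB+HY209 and DNCB skin, 8 were negative, with Fpr2 the largest, and 0 of 6 passed, where 0% of all genes tested passed. At an unadjusted p under 0.05 it was 1 of 6 (Fpr2), against 1.3% of all genes. In DNCB+HY209 against sham skin, 0 of 6 passed, where 0.403% of all genes did, and 0 of 6 had an unadjusted p under 0.05, against 19.3% of all genes. In the fit without the filter, 0 of 9 members passed in any of the 3 comparisons, where 1.17% of 18193 genes did in DNCB against sham skin, 0% in DNCB+HY209 against DNCB skin and 0.297% in DNCB+HY209 against sham skin. An unadjusted p under 0.05 was found there for 2 of 9 members in DNCB against sham skin, beside 14.9% of all genes, and for 1 of 9 (Fpr2) in DNCB+HY209 against DNCB skin, beside 1.53%. For DNCB+HY209 against sham skin it was 1 of 9 (Ngp), beside 17.9% of all genes. In whole skin, fewer cells of a type and less RNA per cell cannot be told apart.

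Among the receptors, Fpr2 encodes a G protein-coupled receptor for formylated peptides, serum amyloid A and annexin A1. Its log2 signal was 4.46, 4.005 and 4.93 in DNCB+HY209 skin, 5.44, 6.30 and 4.83 in DNCB skin, and 4.55 and 4.52 in sham skin. Every DNCB array lay above both sham arrays, whereas DNCB+HY209 skin overlapped both other groups, since its array 3 was above the lowest DNCB array. The difference between DNCB and sham skin was 0.99 on the log2 scale (SE 0.41, 95% confidence interval 0.06 to 1.92, adjusted p = 0.281). The DNCB+HY209 and DNCB groups differed by -1.06 (SE 0.37, interval -1.89 to -0.23, unadjusted p = 0.0180, adjusted p = 1.00). DNCB+HY209 and sham skin differed by -0.07 (SE 0.41, interval -0.997 to 0.86, adjusted p = 0.931). Without the array DNCB 2 the first 2 of these differences were 0.60 and -0.67.

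Cxcr2, the receptor for the chemokines Cxcl1, Cxcl2 and Cxcl5, had a log2 signal of 4.35, 3.999 and 3.999 in DNCB+HY209 skin, 4.31, 4.47 and 4.59 in DNCB skin, and 3.97 and 4.25 in sham skin. These values were close to the array median, and 3 of the 8 lay below it. The 3 DNCB arrays lay above both sham arrays, and DNCB+HY209 skin overlapped each of the other groups. Its log2 difference was 0.35 between DNCB and sham skin (SE 0.20, interval -0.11 to 0.80, adjusted p = 0.397), and 0.20 without the array sham 1. It was -0.34 between DNCB+HY209 and DNCB skin (SE 0.18, interval -0.75 to 0.07) and 0.01 between DNCB+HY209 and sham skin (SE 0.20, interval -0.45 to 0.46).

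Csf3r, the receptor for granulocyte colony-stimulating factor, which drives neutrophil production and survival, had a log2 signal of 4.45, 4.47 and 4.73 in DNCB+HY209 skin, 4.89, 5.51 and 4.55 in DNCB skin, and 4.54 and 4.51 in sham skin. All 3 DNCB arrays lay above both sham arrays, the lowest of them by a margin that was small beside the spread within the group. The log2 difference between DNCB and sham skin was 0.46 (SE 0.27, interval -0.16 to 1.07, adjusted p = 0.404). Between DNCB+HY209 and DNCB skin it was -0.43 (SE 0.24, interval -0.98 to 0.12), and between DNCB+HY209 and sham skin 0.03 (SE 0.27, interval -0.59 to 0.64). Without the array DNCB 2 the first 2 were 0.19 and -0.17.

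The granule genes showed no such order. Ltf encodes lactoferrin, an iron-binding protein of the secondary granules, and its log2 signal was 3.37, 3.41 and 3.38 in DNCB+HY209 skin, 3.33, 3.11 and 3.25 in DNCB skin, and 3.55 and 3.31 in sham skin. All 8 values were below the array medians, and the DNCB+HY209 arrays lay above all DNCB arrays by a small margin. Ltf had a log2 difference of -0.20 between DNCB and sham skin (SE 0.15, interval -0.53 to 0.12). It was 0.16 between DNCB+HY209 and DNCB skin (SE 0.13, interval -0.13 to 0.45) and -0.04 between DNCB+HY209 and sham skin (SE 0.15, interval -0.37 to 0.28). The first of these was -0.09 without sham 1 and -0.32 without sham 2, and the second 0.10 without DNCB 2.

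Ngp, neutrophilic granule protein, had a log2 signal of 3.99, 3.44 and 3.45 in DNCB+HY209 skin, 3.64, 3.70 and 3.95 in DNCB skin, and 4.05 and 4.15 in sham skin. The 2 sham arrays gave the highest values of the 8, still under the array medians, and neither treated group overlapped them. Ngp had a log2 difference of -0.34 between DNCB and sham skin (SE 0.21, interval -0.81 to 0.12). It was -0.13 between DNCB+HY209 and DNCB skin (SE 0.19, interval -0.55 to 0.28) and -0.48 between DNCB+HY209 and sham skin (SE 0.21, interval -0.94 to -0.01, adjusted p = 0.272). With 1 array left out, the difference from DNCB skin ran from -0.31 (without DNCB+HY209 1) to -0.0425 (without DNCB+HY209 2).

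Mmp8, the neutrophil collagenase, had a log2 signal of 2.35, 2.49 and 3.15 in DNCB+HY209 skin, 3.44, 3.02 and 2.71 in DNCB skin, and 3.32 and 3.13 in sham skin. The groups overlapped in all 3 comparisons, and every value lay well under the array medians. Mmp8 had a log2 difference of -0.17 between DNCB and sham skin (SE 0.26, interval -0.76 to 0.42). It was -0.39 between DNCB+HY209 and DNCB skin (SE 0.24, interval -0.92 to 0.14) and -0.56 between DNCB+HY209 and sham skin (SE 0.26, interval -1.15 to 0.03, adjusted p = 0.296). With 1 array left out, the difference from DNCB skin ran from -0.63 (without DNCB+HY209 3) to -0.20 (without DNCB 1).

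Hdc encodes histidine decarboxylase, which makes histamine and is expressed by mast cells and basophils as well as by neutrophils. Its brighter probe set had a log2 signal of 4.04, 4.01 and 4.42 in DNCB+HY209 skin, 4.75, 4.78 and 4.26 in DNCB skin, and 4.25 and 4.36 in sham skin, and the groups overlapped in every comparison. The log2 difference was 0.29 between DNCB and sham skin (SE 0.23, interval -0.23 to 0.81, adjusted p = 0.505). It was -0.44 between DNCB+HY209 and DNCB skin (SE 0.20, interval -0.90 to 0.02) and -0.15 between DNCB+HY209 and sham skin (SE 0.23, interval -0.67 to 0.37). Without the array DNCB 3 the first was 0.46, and the last ran from -0.28 (without DNCB+HY209 3) to -0.08 (without DNCB+HY209 2). The dimmer probe set spread more widely, at 3.76, 4.07 and 4.92 in DNCB+HY209 skin, 4.69, 6.35 and 3.81 in DNCB skin, and 3.63 and 3.49 in sham skin. There both treated groups lay above both sham arrays, with a log2 difference of 1.39 between DNCB and sham skin (SE 0.60, adjusted p = 0.366 in a fit of all probe sets). For DNCB+HY209 against sham skin the 2 probe sets gave opposite signs, -0.15 for the brighter and 0.68 (SE 0.60) for the dimmer.

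Markers of mast cells and basophils had a mean log2 signal over 11 genes of 3.54 to 3.80 in DNCB+HY209 skin, 3.68 to 3.94 in DNCB skin, and 3.58 to 3.71 in sham skin. Of the 11, 3 passed the filter on low signals and 0 of these 3 passed limma's test or had an unadjusted p under 0.05 in any comparison, and Tpsab1, Fcer1a, Ms4a2 and Mcpt8 lay below the array median on all arrays. The list mean, like both Hdc probe sets, was highest on the array DNCB 2. Of the 3 markers that passed the filter, only the 2 brightest are described singly. Gata2 was highest on sham 2 and Kit on DNCB+HY209 1. The part of these cells in the Hdc signal was not tested.

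Trem1, a receptor that amplifies inflammatory signalling through the adaptor encoded by Tyrobp, had a log2 signal on its brighter probe set of 5.07, 4.94 and 5.07 in DNCB+HY209 skin, 5.16, 5.42 and 5.38 in DNCB skin, and 5.27 and 5.11 in sham skin. The DNCB+HY209 arrays lay below every array of both other groups, by narrow margins. The log2 difference was 0.12 between DNCB and sham skin (SE 0.18, interval -0.29 to 0.53). It was -0.29 between DNCB+HY209 and DNCB skin (SE 0.16, interval -0.65 to 0.08) and -0.17 between DNCB+HY209 and sham skin (SE 0.18, interval -0.57 to 0.24). With 1 array left out, the first ran from 0.04 (without sham 2) to 0.20 (without sham 1 or DNCB 1), and the last was -0.08 without sham 1. The dimmer probe set, at 3.53, 3.41 and 3.46 in DNCB+HY209 skin, 3.41, 3.21 and 3.70 in DNCB skin, and 3.53 and 3.76 in sham skin, did not show the same order. Its log2 difference was -0.20 between DNCB and sham skin and 0.03 between DNCB+HY209 and DNCB skin, opposite in sign to the brighter probe set.

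Clec4d encodes a C-type lectin receptor that binds mycobacterial glycolipids and signals through the Fc receptor gamma chain. Its log2 signal was 4.22, 4.36 and 5.47 in DNCB+HY209 skin, 5.48, 5.98 and 4.53 in DNCB skin, and 3.86 and 4.05 in sham skin. Both treated groups lay above both sham arrays, and the sham values were the 2 of 8 below the array median, so the fold against sham is approximate. The log2 difference was 1.38 between DNCB and sham skin (SE 0.47, interval 0.33 to 2.43, unadjusted p = 0.0158, adjusted p = 0.200). It was -0.65 between DNCB+HY209 and DNCB skin (SE 0.42, interval -1.59 to 0.29), and those groups overlapped. Between DNCB+HY209 and sham skin it was 0.73 (SE 0.47, interval -0.32 to 1.78, adjusted p = 0.383), and 0.34 without the array DNCB+HY209 3. With 1 array left out, the difference between DNCB+HY209 and DNCB skin ran from -1.05 (without DNCB 3) to -0.32 (without DNCB 2). With the Gapdh 3' to 5' difference of each array as a covariate, Clec4d passed in DNCB against sham skin, at 1.37 (adjusted p = 0.0473), and over the other alternatives run its adjusted p reached 0.792.

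**Figure D2:**
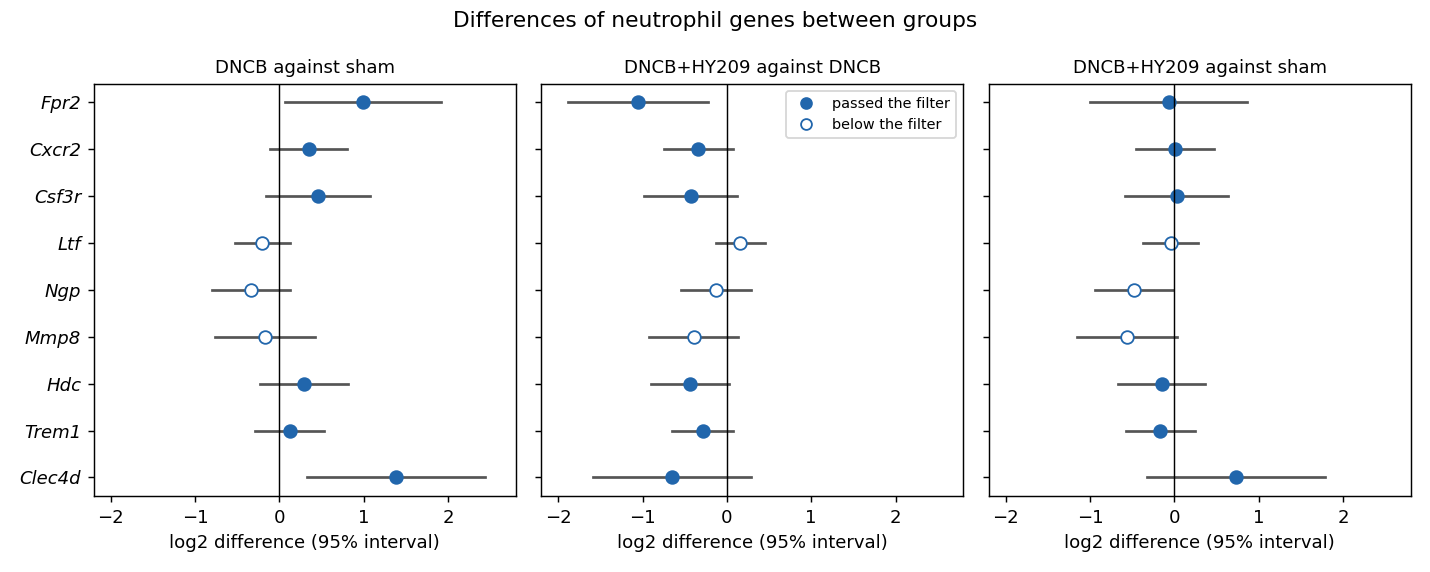
Log2 difference of each member's brightest probe set in 3 comparisons (horizontal axis), with 95% confidence intervals from limma. Filled points passed the filter on low signals and open points did not. The intervals of Fpr2 and Clec4d in DNCB against sham skin and of Fpr2 in DNCB+HY209 against DNCB skin exclude 0, as does that of Ngp in DNCB+HY209 against sham skin.

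Counted over the 9 listed genes without a filter, 4 had all DNCB arrays above both sham arrays (Fpr2, Cxcr2, Csf3r and Clec4d), against 17.5% of 18193 genes, and 1 (Ngp) had them below, against 14.4%. The log2 difference between DNCB and sham skin was positive for 6 and negative for 3 of the 9, with a median of 0.29, beside 0.02 over all genes. When DNCB+HY209 was set against DNCB skin, 1 gene lay above (Ltf), against 2.48% of all genes, and 1 below (Trem1), against 2.83%. In that comparison 8 of the 9 differences were negative, with a median of -0.39 beside 0.01 over all genes, and 48.7% of all genes were negative. These counts use the brightest probe sets. The dimmer one of Trem1 differed there by 0.03, and its groups overlapped in every comparison. The dimmer one of Hdc had all DNCB and all DNCB+HY209 arrays above both sham arrays, whereas the brighter one overlapped in every comparison. All Ltf values lay below the array medians. Between DNCB+HY209 and sham skin, Clec4d lay above without overlap, against 21.4% of all genes, and Ngp and Trem1 below, against 17.6%. The 3 comparisons share arrays in pairs, so their values for a gene are not independent of each other.

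As a mean, the tested members varied between arrays within both treated groups and differed little between the sham arrays. The sham group held only 2 arrays, against 3 in each treated group, so its spread is poorly known. The pattern of the mean did not hold for each member. The SD of Cxcr2 was 0.20 in sham, 0.14 in DNCB and 0.20 in DNCB+HY209 skin, and that of Ltf 0.17, 0.11 and 0.02. The mean of the 6 tested members, each centred on its own mean over arrays, was -0.25, -0.38 and 0.08 in DNCB+HY209 skin, 0.32, 0.73 and 0.00 in DNCB skin, and -0.28 and -0.22 in sham skin. The array DNCB 3 lay below the array DNCB+HY209 3 on this measure. The mean log2 signal of the array's spike-in controls, added in the laboratory and not made by the skin, was 11.3, 10.4 and 10.3 in DNCB+HY209 skin, 11.1, 9.67 and 11.2 in DNCB skin, and 11.3 and 12.0 in sham skin. It was lowest on DNCB 2, the array where the members were highest, and with it as a covariate the difference between DNCB and sham skin was 0.43 for Fpr2, 0.05 for Csf3r, 0.11 for Hdc, 0.06 for Trem1 and 0.74 for Clec4d, all smaller than without it, and 0.48 for Cxcr2, which was larger. Both sham arrays (11.35 and 12.0) lay above every treated array (11.26 at most) in spike-in level. Group and spike-in level therefore cannot be fully told apart in comparisons with sham skin. With that covariate Fpr2 was at -1.07 between DNCB+HY209 and DNCB skin and at -0.64 against sham skin, and Clec4d at 0.075 between DNCB+HY209 and sham skin. The Gapdh 3' to 5' signal ratio, a sign of RNA quality, was 3.24, 2.63 and 2.31 in DNCB+HY209 skin, 2.79, 2.11 and 7.35 in DNCB skin, and 4.46 and 2.81 in sham skin. Over probe sets, arrays within a group correlated at 0.965 to 0.986 and arrays of different groups at 0.92 to 0.987.

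**Figure D3:**
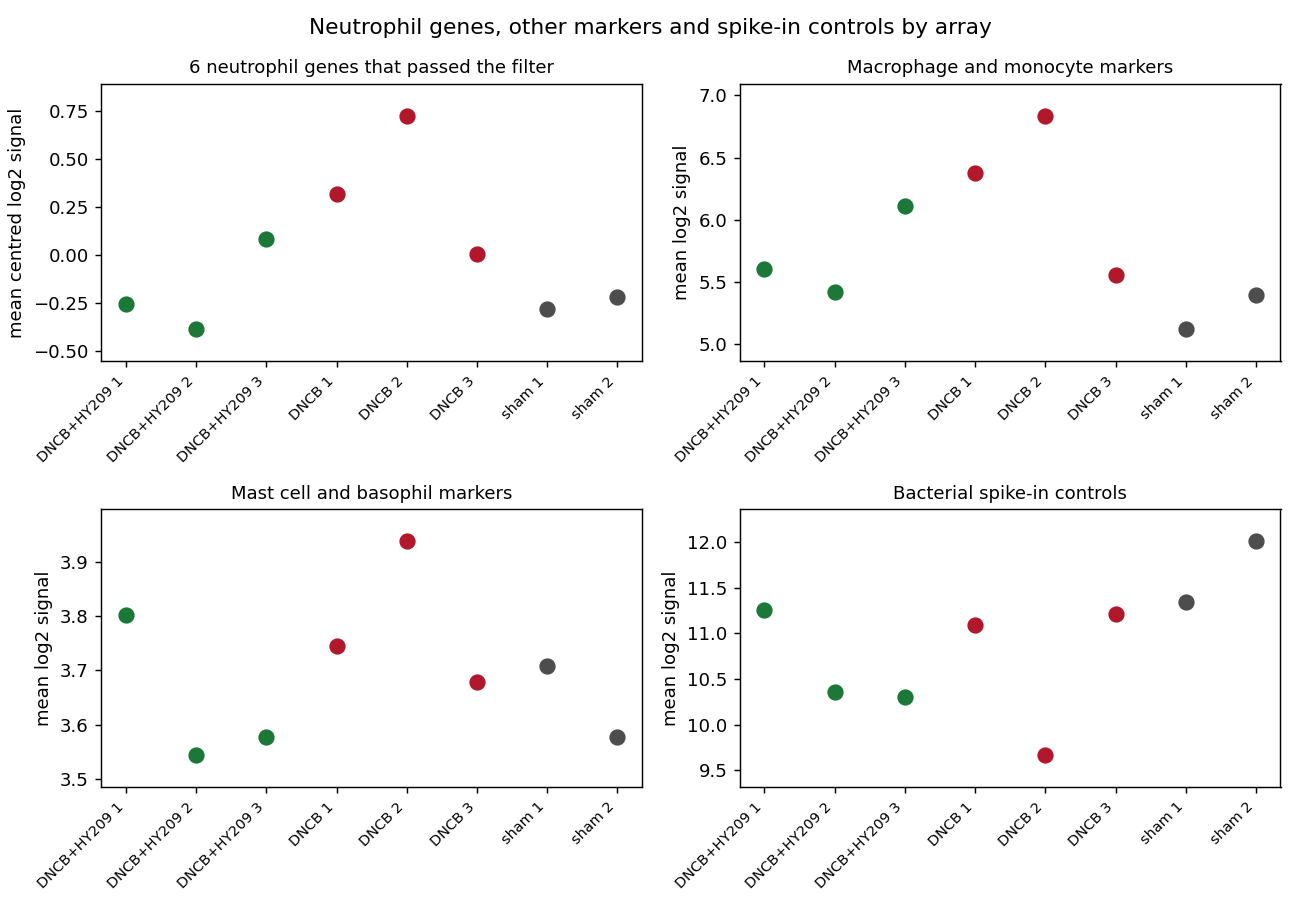
By array, from DNCB+HY209 through DNCB to sham, the mean centred log2 signal of the 6 tested members and the mean log2 signals of the macrophage and monocyte markers, the mast cell and basophil markers and the spike-in controls (vertical axes), 1 point per array. The array DNCB 2 stands highest in the members, lowest in the spike-in controls and highest in the macrophage and monocyte markers.

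The genes whose log2 signals ran most like this mean over the 8 arrays, among 2514 with an SD of at least 0.5, were Lox (lysyl oxidase, which crosslinks collagen), Fstl1 (a secreted glycoprotein), C1qb (a complement C1q chain made by macrophages), Sprr2i (a cornified envelope protein) and Tubb2b (a beta tubulin). Their Pearson r was 0.943 to 0.958 over 8 arrays that fall into the same 3 groups, given as a description. The 11 listed macrophage and monocyte markers had a mean log2 signal of 5.60, 5.42 and 6.11 in DNCB+HY209 skin, 6.38, 6.84 and 5.56 in DNCB skin, and 5.12 and 5.39 in sham skin. All 11 passed the filter, and none of them lay below the array median throughout. In DNCB against sham skin 0 of 11 differences were negative, with a median of 1.14, beside 0.15 over all genes tested. An unadjusted p under 0.05 was found there for 7 of 11, beside 16.8% of all genes. Limma's test after adjustment was passed by 1 of 11, where 1.83% of all genes passed. That gene was Ms4a7, at a log2 difference of 1.82 (SE 0.37, adjusted p = 0.0474), and its call was lost in 15 of 20 alternatives, 6 of them leaving out a single array (sham 1 or 2, DNCB 1 or 2, DNCB+HY209 2 or 3). The macrophage markers were negative in DNCB+HY209 against DNCB skin for 11 of 11, with a median of -0.58, where 48.7% of 18193 genes were negative without the filter. Of these 11 genes, 0 passed and 2 had an unadjusted p under 0.05, beside 1.3% of all genes tested. Fpr2, Csf3r, Trem1 and Clec4d are also expressed by monocytes and macrophages, and the part of those cells in the member signals was not tested.

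Other genes of the neutrophil programme were read from fixed lists. Of 8 tested ligands and growth factors, 0 passed limma's test in any comparison. An unadjusted p under 0.05 was found for 4 in DNCB against sham skin, beside 16.8% of all genes. It was found for 1 in DNCB+HY209 against DNCB skin, beside 1.3%, and for 2 in DNCB+HY209 against sham skin, beside 19.3%. The median log2 difference of the 8 was 0.93 in DNCB against sham skin, beside 0.15 over all genes tested, and -0.39 in DNCB+HY209 against DNCB skin, beside 0.03. Saa3, a serum amyloid A that acts on Fpr2, had a log2 signal of 7.56, 7.86 and 9.74 in DNCB+HY209 skin, 9.28, 10.97 and 6.53 in DNCB skin, and 4.82 and 5.33 in sham skin. All treated arrays lay above sham, with a difference of 3.85 between DNCB and sham skin (SE 1.12, adjusted p = 0.146). Anxa1, which encodes annexin A1, another ligand of Fpr2, had a difference of 0.65 (SE 0.47). Cxcl3, Ppbp, Csf2 and Pglyrp1 lay below the array median on all arrays.

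Among 8 tested further receptors and adhesion genes, 1 rose in DNCB against sham skin and 0 fell, where 1.83% of all genes tested passed. Their median log2 difference there was 0.83, beside 0.15 over all genes tested, with 1 of 8 negative. An unadjusted p under 0.05 was found for 3 of 8, beside 16.8% of all genes. Cxcr4, which holds neutrophils in the bone marrow and is also expressed by many other white blood cells, was at 4.18, 4.47 and 4.70 in DNCB+HY209 skin, 4.71, 5.28 and 4.23 in DNCB skin, and 2.65 and 3.35 in sham skin. It rose by 1.74 on the log2 scale in DNCB against sham skin (SE 0.34, adjusted p = 0.0423). This call was lost in 11 of 20 alternatives, 6 of them leaving out a single array (sham 1 or 2, DNCB 1 or 2, DNCB+HY209 2 or 3). Both sham values lay below the array median, so the size is approximate, and with signals floored at the array median the difference was 0.54 (adjusted p = 0.348). Il1r2, a decoy receptor for interleukin 1 on neutrophils, was at 5.14, 5.40 and 6.60 in DNCB+HY209 skin, 6.21, 6.78 and 5.07 in DNCB skin, and 6.98 and 7.38 in sham skin. The DNCB arrays lay below both sham arrays without passing the test, at a difference of -1.16 (SE 0.54). When DNCB+HY209 skin was set against DNCB skin, 0 of these 8 genes passed by limma and 0 had an unadjusted p under 0.05, beside 1.3% of all genes. Against sham skin the counts in DNCB+HY209 skin were 0 and 3, beside 19.3% of all genes with such an unadjusted p. The chemoattractant receptors C5ar1 and Ptafr, the integrin gene Itgam and the neutrophil surface gene Cd177 lay below the array median on all arrays.

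Among 7 tested C-type lectin and ITAM-linked genes, the closest relatives of Trem1 and Clec4d in function, 1 rose and 0 fell in DNCB against sham skin. In that comparison 1.83% of all genes tested passed. The median log2 difference of the 7 was 0.88 there, beside 0.15 over all genes tested, with 1 of 7 negative. An unadjusted p under 0.05 was found for 4 of 7, beside 16.8% of all genes. Clec7a, the beta-glucan receptor dectin-1, rose by 1.19 on the log2 scale (SE 0.24, adjusted p = 0.0448), and its signal was 5.67, 6.03 and 6.14 in DNCB+HY209 skin, 5.92, 6.19 and 5.80 in DNCB skin, and 4.99 and 4.58 in sham skin. The treated groups of Clec7a overlapped each other and neither overlapped sham, but the call was lost in 14 of 20 alternatives, leaving out any array except DNCB+HY209 1 among them (adjusted p up to 0.270). Tyrobp, the adaptor of Trem1, was at 6.08, 5.76 and 6.72 in DNCB+HY209 skin, 7.32, 7.42 and 5.96 in DNCB skin, and 4.98 and 4.63 in sham skin, with a difference of 2.10 between DNCB and sham skin that did not pass (SE 0.45, adjusted p = 0.0599). All 7 were negative in DNCB+HY209 against DNCB skin, with a median of -0.25, where 48.7% of 18193 genes were negative without the filter. Of these 7 genes, 0 passed and 1 had an unadjusted p under 0.05, beside 1.3% of all genes tested. Against sham skin, 0 of 7 passed in DNCB+HY209 skin and 2 had an unadjusted p under 0.05, beside 19.3% of all genes tested. Clec4e, the lectin that partners the Clec4d product, lay below the array median on all arrays.

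Among 12 tested granule and oxidase genes other than the members, 3 rose in DNCB against sham skin and 0 fell. In that comparison 1.83% of all genes tested passed. Their median log2 difference there was 1.21, beside 0.15 over all genes tested, with 4 of 12 negative. An unadjusted p under 0.05 was found for 6 of 12, beside 16.8% of all genes. The calprotectin genes S100a8 and S100a9, which are abundant in neutrophils and are also induced in stressed keratinocytes, both rose. The increase on the log2 scale was 5.73 for S100a8 (SE 0.70, adjusted p = 0.0120) and 6.01 for S100a9 (SE 0.78, adjusted p = 0.0147), and each call was lost in 4 of 20 alternatives. These were the fits without sham 1, sham 2 or DNCB 1 for both genes (adjusted p up to 0.0958), the replicate block for S100a8 (adjusted p = 0.0535) and the spike-in covariate for S100a9 (adjusted p = 0.0944). Cybb, the catalytic subunit of the phagocyte oxidase, rose by 1.003 (SE 0.20, adjusted p = 0.0471), a call lost in 14 of 20 alternatives, 6 of them leaving out a single array (the same 6 as for Cxcr4). Its sham values also lay below the array median, so the size is approximate, and with the floor it was 0.82 (adjusted p = 0.0707). In DNCB+HY209 against sham skin S100a8 rose by 4.67 (adjusted p = 0.0367) and S100a9 by 4.84 (adjusted p = 0.0460), calls that were lost in 9 of 20 alternatives for S100a8 and 10 of 20 for S100a9. Both were lost without sham 1, sham 2, DNCB 1, DNCB+HY209 2 or DNCB+HY209 3 (adjusted p up to 0.206), with the replicate block (0.127 for S100a8 and 0.111 for S100a9), with the spike-in covariate (0.142 and 0.260), in a fit of only the groups compared and with the mean of probe sets, and that of S100a9 also with centred arrays. The sham 1 signal of S100a9 lay below the array median, so its differences are approximate. Set against DNCB skin, DNCB+HY209 skin had 0 of 12 passing and 0 with an unadjusted p under 0.05. The stress keratins, markers of activated keratinocytes, had 3 of 4 genes higher in DNCB against sham skin, where 1.83% of all genes tested passed. Their median difference was 5.69, beside 0.15 over all genes tested. Their part in the S100a8 and S100a9 signal was not tested. Of 16 listed granule and oxidase genes, 4 lay below the array median on all arrays, like Ltf, Ngp and Mmp8. These were the primary granule genes Mpo and Ctsg and the genes Chil3 and Olfm4.

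**Figure D4:**
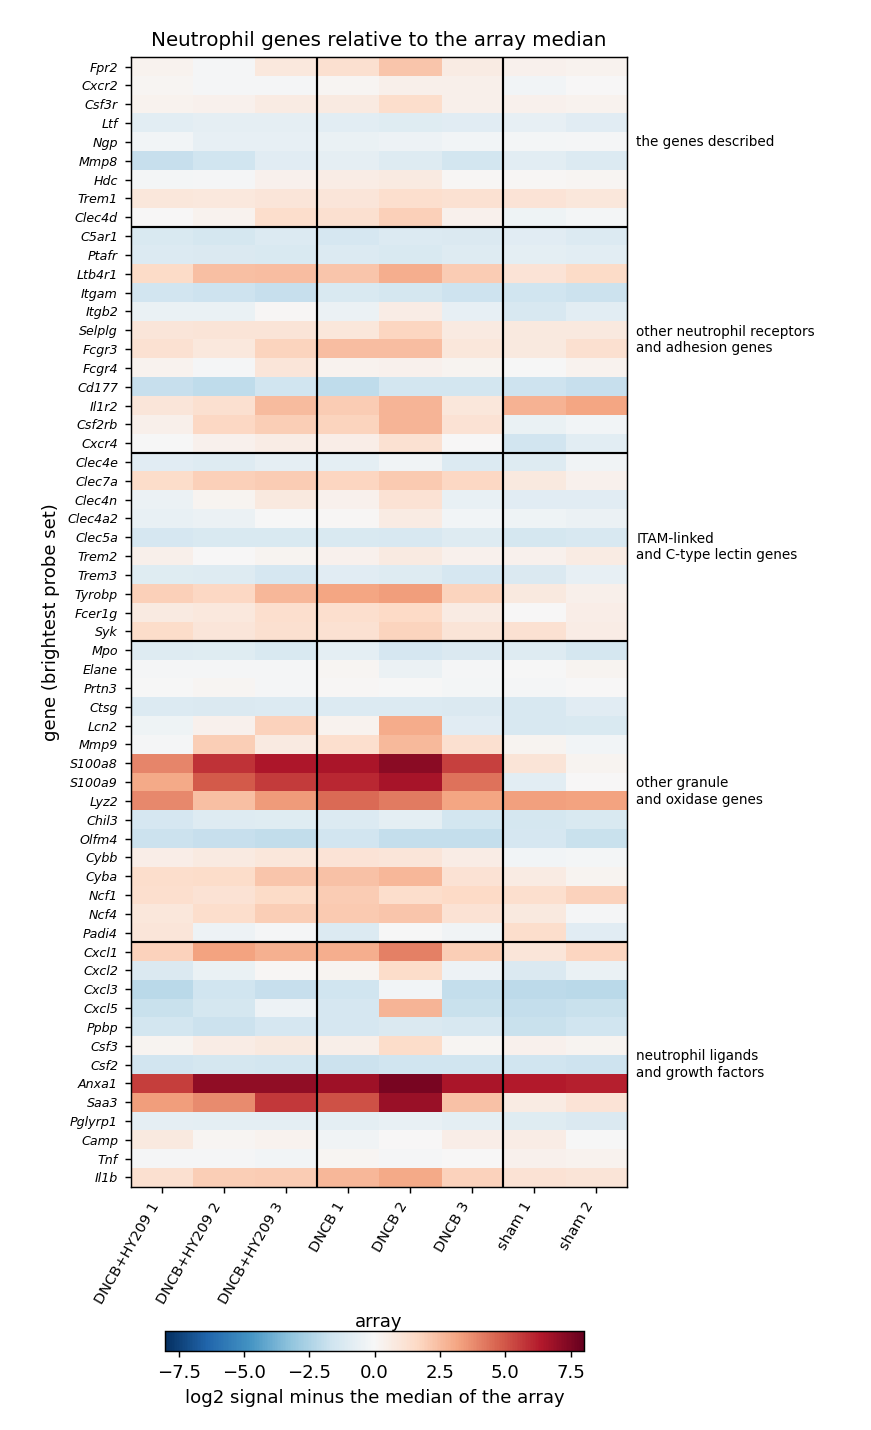
Log2 signal minus the array median for the members and 4 lists of other neutrophil genes (rows, brightest probe set) on each array (columns, DNCB+HY209, DNCB and sham from left to right). Red is above the median and blue below; S100a8 and S100a9 stand far above it on every treated array, whereas the members lie between -1.84 and 2.23 (highest Fpr2 on DNCB 2).

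Of the transcription factors that act in granulocytes, 6 were tested and 0 passed limma's test in any comparison. An unadjusted p under 0.05 was found for 2 in DNCB against sham skin, beside 16.8% of all genes tested, and for 0 in the other comparisons. Cebpb, a C/EBP factor expressed by many cell types of skin, was at 10.39, 10.33 and 10.61 in DNCB+HY209 skin, 10.15, 10.52 and 10.37 in DNCB skin, and 10.17 and 9.87 in sham skin, and its difference between DNCB and sham skin was 0.32 (SE 0.21). Gfi1 lay below the array median on all arrays. Eosinophil markers lay below it on all arrays for 5 of 5 genes, and of 4 tested T cell markers 0 passed limma's test and 0 had an unadjusted p under 0.05 in any comparison. Of 10 hair follicle markers 2 fell in DNCB against sham skin, with a median of -1.93. Of 10 skeletal muscle markers 1 rose there, and 1.83% of all genes tested passed in that comparison. The part of these differences in tissue make-up in the member values was not tested.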

How the data were processed

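RNA of 8 skin samples, amplified from the 3' end and biotinylated (per the labels' protocols), was measured on Affymetrix arrays. The label text names the 430A 2.0 array, whereas the table holds 45101 probe sets, and the probe annotation is that of the larger array. The authors deposited log2 signals for each probe set, a scale inferred from the values. Affymetrix Expression Console and MAS5 are named in the submitters' processing notes. How arrays were normalized to each other was not given in the sources used here.

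Groups came from titles and source names. Of the probe sets, 64 were controls and were left out, 34945 had 1 gene symbol, 932 several and 9160 were not listed. A probe set was kept if above its array median on at least 2 of 8 arrays (24675 kept), and a gene was its brightest kept probe set (12420 genes, 18193 without the filter). Differences were tested with limma 3.58.1 in R 4.3.3 (lmFit, eBayes with an intensity trend, 8 arrays in 1 fit, two-sided, Benjamini-Hochberg over all genes, threshold 0.05), checked on simulated data. Intervals cover 95%. The number of arrays limits precision.

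The members and lists were chosen with earlier results of these data known. Named genes were all members; of each list the called genes, up to 6 by adjusted p, or, where fewer than 2 were called, the 2 brightest; and the 5 genes most like the members' mean. Further genes of a list are named where they lay below the median throughout, and not all genes the rule gives are described. Alternatives were other scalings, a floor, filters, probe set rules, variance settings, covariates, a replicate block and each array left out. The other probe sets of Hdc and Trem1 were added after seeing the data. Promoters came from RefSeq (GRCm38.p6). Figures used Python 3.11.15 and matplotlib 3.10.9.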

Additional observations from a re-analysis of the deposited data

How the results depend on the processing

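The 27 member differences (9 genes, 3 comparisons) gave 510 values under the alternatives, of which 18 had the opposite sign and 1 passed the threshold, and the causes were not tested. No member passed as deposited, so none could lose a call. The count of members passing was 0 in every setting run except DNCB against sham skin with the Gapdh covariate, where it was 1 (Clec4d). Opposite signs in DNCB+HY209 against sham skin were 0.0045 for Fpr2 with arrays centred, -0.0376 for Cxcr2 with a floor, -0.39 and -0.13 for Csf3r with the spike-in and Gapdh covariates, 0.20, 0.27 and 0.68 for Hdc with a floor, the mean of its probe sets and its other probe set, and 0.10 and 0.0298 for Ltf with quantile normalization and centring. In DNCB+HY209 against DNCB skin Ltf was -0.0163 with a floor and Trem1 0.0270 on its other probe set, where DNCB against sham skin gave -0.20. With each array left out, DNCB+HY209 against sham skin ranged from -0.30 to 0.16 for Fpr2, -0.14 to 0.15 for Cxcr2, -0.0638 to 0.0764 for Csf3r and -0.16 to 0.0729 for Ltf, and DNCB against sham skin from -0.36 to 0.0026 for Mmp8. Clec4d in DNCB against sham skin was 1.06 without DNCB 2, and -0.32 against -0.65 in DNCB+HY209 against DNCB skin. Genes passing in DNCB against sham skin, 227, became 35 with the replicate block, 16 with the spike-in covariate, 452 with the Gapdh covariate and 15 (without sham 2) to 352 (without DNCB+HY209 1) with each array left out. In DNCB+HY209 against sham skin, 50 became 97 with quantile normalization, 24 with the mean of probe sets, 16 with only the groups compared, 12 with the replicate block, 8 with the spike-in covariate and 9 (without sham 1, sham 2 or DNCB+HY209 2) to 287 (without DNCB+HY209 1) with each array left out. The shared replicate numbers did not pair the arrays (correlations of same-numbered deviations from -0.603 to 0.276), and members passing stayed at 0 with the block. Quantile normalization moved the median of all genes in DNCB against sham skin to -0.0017, against 0.15 as deposited. Members near or below the array median, Ltf, Ngp and Mmp8 above all, are limited by low signal.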
